A study of Mus musculus with 6 samples.

Results

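The Rab GTPases are the largest family of small GTP-binding proteins that direct membrane traffic, and their transcripts were followed here in macrophages that had been grown from mouse bone marrow (BMDM). Members were taken from the deposited differential expression table by gene name: Rab, a number and at most 1 letter and 1 further digit. The rule, which uses no measured value, found 49 genes among the 14005 listed, and all 49 passed the filter of a mean of at least 10 normalized counts. A further 10 genes with such a name in the GENCODE M21 annotation (Rab3b, Rab3c, Rab9b, Rab25, Rab26, Rab27b, Rab30, Rab33a, Rab39b and Rab40b) were not analysed here.

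Polyadenylated RNA was sequenced in 3 libraries labelled Txn1 KO, also written as Txn1 KO here after the label, and 3 wild-type libraries. The first group carries Txn1tm1.1Ees/J, an allele of Txn1, the gene of the cytosolic disulfide reductase thioredoxin-1, together with B6.129P2-Lyz2tm1(cre)lfo/J, a Cre recombinase knocked into Lyz2. Lyz2 drives Cre in macrophages and other myeloid cells, and the insertion interrupts Lyz2 itself. The controls were labelled wild type. Both groups are given as C57BL/6J primary macrophages from bone marrow, pooled male and female, with no treatment named, and the study asked how loss of thioredoxin-1 affects NLRP1 inflammasome genes. A Cre-only control was not analysed here, so the Txn1 allele and the Cre insertion cannot be told apart. Whether each replicate is a separate animal or culture is not said in the labels, and p-values therefore reflect only how far these samples spread, which may be technical.

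Over the listed genes, libraries held 22508616 to 31127228 reads in the group labelled Txn1 KO and 29716640 to 38726953 in wild type. Txn1 had 12695, 11963 and 12389 normalized counts in the libraries labelled Txn1 KO, against 13176, 12155 and 12409 in wild type (log2 difference -0.03 ± 0.037 (SE), limma adjusted p = 0.686). These are sums over the whole gene, and reads outside a deleted part cannot show a deletion. Lyz2 had 1775 to 4327 normalized counts in the libraries labelled Txn1 KO, against 361315 to 368284 in wild type, so the Cre insertion follows the labels in all 6 libraries. Of the 9 macrophage markers, Mertk and Itgam rose, Cd14, Cd68, Fcgr1, Mrc1 and Lyz2 fell, and Adgre1 and Csf1r did not pass. Fcgr1, a high-affinity IgG receptor, had 5078 to 5644 normalized counts in the libraries labelled Txn1 KO and 8580 to 9087 in wild type (log2 -0.71), Mertk, a receptor for apoptotic cells, had 3017 to 3317 in Txn1 KO and 1909 to 2141 in wild type (log2 0.64), and Cd68, a lysosomal glycoprotein, had 39342 to 41700 in Txn1 KO and 42809 to 45379 in wild type (log2 -0.12). All 9 were detected in every library, among them Csf1r, the receptor of macrophage colony-stimulating factor, with 51611 to 52599 normalized counts in the libraries labelled Txn1 KO and 49624 to 51976 in wild type. The library labelled Txn1 KO replicate 3 and wild-type replicate 1 stood apart from the other 4 on the second principal component (29.3% of the variance) and carried liver transcripts: the albumin gene Alb had 580.0 normalized counts in Txn1 KO replicate 3, 642.9 in wild-type replicate 1 and no more than 0.838 in any of the others. Of 13 listed stromal markers 10 fell, beside 9.97% of all tested genes. Their sums were 1697 to 2800 normalized counts in the libraries labelled Txn1 KO and 3542 to 4222 in wild type. Of 7 listed dendritic cell markers 3 rose, beside 11.5% of all tested genes (sums of 5712 to 6383 in Txn1 KO and 3725 to 4036 in wild type). Both listed megakaryocyte markers, Itga2b and Pf4, rose (sums of 589.4 to 701.2 in Txn1 KO and 305.2 to 334.2 in wild type). Of 6 listed neutrophil markers 2 fell (Ngp and S100a9), with overlapping sums of 270.5 to 336.2 in Txn1 KO and 296.5 to 330.4 in wild type. Of 10 listed liver markers 1 rose (Hp). No listed mast cell, T cell or B cell marker passed. The markers that passed moved with the same groups as every result given here, and their part in the results was not tested. In bulk RNA, fewer cells of a type and less RNA per cell cannot be told apart.

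Rab proteins are molecular switches. Guanine nucleotide exchange factors (GEFs) load them with GTP on a given membrane, where they recruit effectors such as tethers and motors, and GTPase-activating proteins (GAPs) turn them off. A lipid tail added by geranylgeranyl transferase holds them in the membrane, and GDP dissociation inhibitors carry the inactive form back through the cytosol. In macrophages, Rab5 acts on early endosomes and young phagosomes, Rab7 on late endosomes and phagolysosomes, Rab1 and Rab2 between the endoplasmic reticulum (ER) and the Golgi, and Rab8, Rab10 and Rab11 on routes to the plasma membrane.

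Of the 49 Rab genes, 9 rose and 4 fell with the Txn1 KO label while 36 did not pass the test, which was limma on log2(normalized count + 1) at an adjusted p under 0.05 over all tested genes. The share past the test was 26.5%, beside 21.5% of all 13977 tested genes. The rises and the 26.5% count Rab17, which passed the filter on low values only through the libraries labelled Txn1 KO. With a mean of at least 50 required, which left out Rab17 and other low members, 8 rose and 4 fell of 43. By direction, 11.5% of all tested genes rose and 9.97% fell. Rab genes were mostly well expressed: among those with a mean of at least 1000 normalized counts 10 of 27 (37.0%) passed, beside 33.6% of all genes at that level. The share of changed genes in the family was thus near the background. Of the 13 changes 10 were under 1.25-fold, beside 1723 of the 3001 called among all tested genes. At a mean of at least 1000 this held for all 10 called members, beside 1355 of 1729 called genes. Small changes were thus common among called genes. Only Rab17, with a wild-type mean of 1.18 normalized counts, was past 2-fold. Of all tested genes 2.23% were called and at least 2-fold. The median log2 difference was 0.03 over the family and -0.005 over all tested genes, and the median absolute log2 difference 0.098 and 0.126. The 2 groups of libraries did not overlap for 20 members (40.8%, against 36.2% of all tested genes), the 13 called members among them. Rab genes together took 0.456% to 0.470% of the reads on listed genes in the libraries labelled Txn1 KO and 0.444% to 0.457% in wild type. The count of calls was sensitive to single libraries. Without Txn1 KO replicate 1 it was 4 higher and 2 lower. Without wild-type replicate 2 or 3 it was 6 higher and 2 lower. Without Txn1 KO replicate 2 it was 4 higher and 3 lower, but Rab17 was not tested there because its mean fell under 10.

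**Figure D1:**
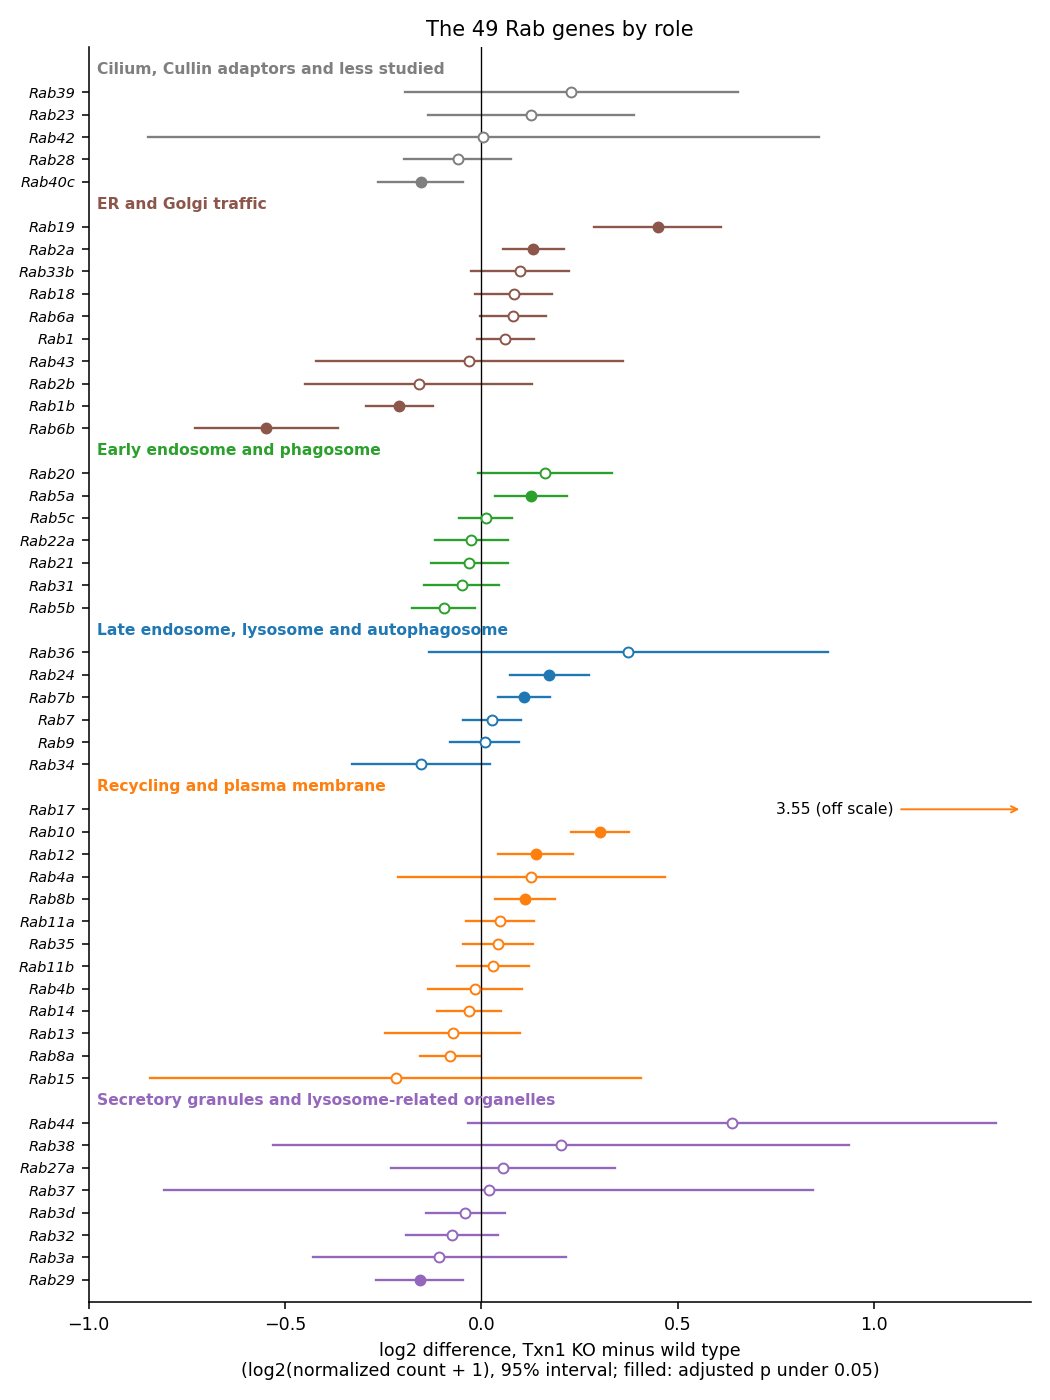
Log2 difference (Txn1 KO minus wild type, horizontal axis, on log2(normalized count + 1)) of each of the 49 Rab genes with its 95% interval from limma, grouped by role; filled points passed the test. Most points lie close to 0 and the wide intervals belong to genes with few reads; Rab17, at 3.55, lies off the scale.

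Compared per kilobase of merged exons, Rab7, the switch of late endosomes and phagolysosomes, was the most abundant member, with 8888 ± 248.0 normalized counts per kb in the libraries labelled Txn1 KO and 8724 ± 320.5 in wild type (SD, n = 3 each). Rab5c, an early endosomal isoform, followed with 4548 ± 97.8 per kb in the libraries labelled Txn1 KO and 4514 ± 59.7 in wild type. Rab7b came next, with 3350 ± 28.7 per kb in the libraries labelled Txn1 KO and 3107 ± 56.9 in wild type. The next in wild type were the ER-to-Golgi genes Rab1b and Rab1 (the gene of Rab1A). Their order per kb was reversed between the groups, with Rab1b at 2125 and Rab1 at 2268 per kb in the libraries labelled Txn1 KO, against 2455 and 2175 in wild type. This order depends on the exon length used. Not divided by length, Rab1 and Rab1b averaged 8617 and 4827 normalized counts in Txn1 KO and 8265 and 5578 in wild type. In wild type 11 members exceeded 1000 normalized counts per kb. The 5 most abundant members of each library took 49.8% to 50.5% of the family's summed level per kb in the libraries labelled Txn1 KO, and 50.4% to 51.2% in wild type. At the other end, 6 members had a wild-type mean under 50 normalized counts: Rab15, Rab17, Rab37, Rab38, Rab42 and Rab44. Processed pseudogenes of 2 members are listed too and could share reads, but stood far below their parents: Rab7-ps1 averaged 33.3 ± 4.18 normalized counts in Txn1 KO and 27.1 ± 5.83 in wild type (SD, n = 3 each), and Rab11b-ps2 had 14.8 to 27.7 in Txn1 KO and 18.3 to 21.8 in wild type.

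**Figure D2:**
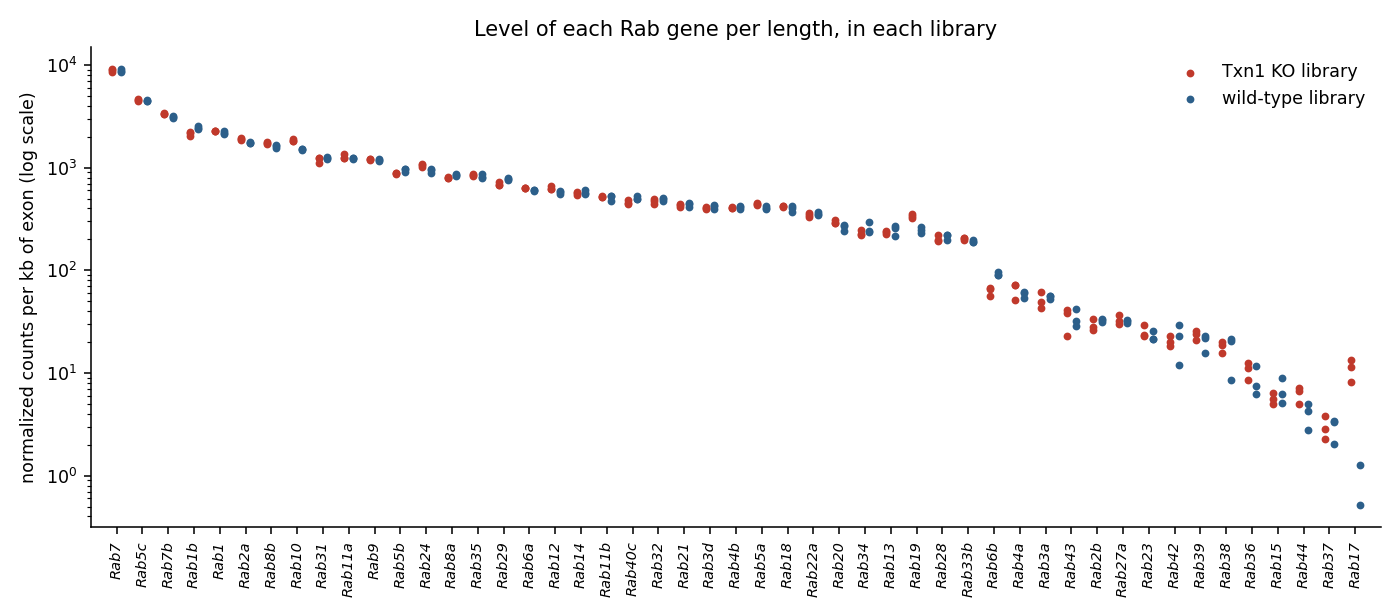
Normalized counts per kilobase of merged exons (vertical axis, log scale) of each Rab gene in each library, ordered by the wild-type mean; Rab17 in wild-type replicate 2 is at 0 and is not drawn. Rab7 leads in both groups, near 8888 per kb in Txn1 KO and 8724 in wild type, and Rab17 is the member with the widest gap between the groups.

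Among the Rabs of recycling and of traffic to the plasma membrane, 4 of 13 rose and 0 fell (30.8%, beside 11.5% of all tested genes that rose and 9.97% that fell), counting Rab17, which passed the filter on low values only through the libraries labelled Txn1 KO. The median level of the group was 2352 normalized counts. Of the 5149 tested genes with a mean of at least 1000, 842 rose and 887 fell, 33.6% together. The group itself was not tested. Rab10 (ENSMUSG00000020671, chromosome 12, 3247428 to 3309969, minus strand, GRCm38) guides exocytic vesicles and, in macrophages, delivers TLR4 to the cell surface. It had 6421, 6321 and 6670 normalized counts in the libraries labelled Txn1 KO, against 5162, 5287 and 5287 in wild type. Each library labelled Txn1 KO lay above each wild-type library, and the difference was 23.4% of the wild-type mean (log2 0.30 ± 0.035 (SE), limma adjusted p = 6.12e-06). Its exons overlap those of the opposite-strand gene Rab10os, which went the other way (757.0 to 795.1 normalized counts in Txn1 KO against 869.6 to 955.8 in wild type, log2 -0.25), and the labels do not say whether reads were counted by strand. Rab8b, a Rab of exocytosis, had 8111, 8429 and 8160 normalized counts in the libraries labelled Txn1 KO and 7283, 7828 and 7772 in wild type. The groups did not overlap, and wild-type replicate 1 was the lowest library (log2 0.11 ± 0.036, limma adjusted p = 0.0379). Rab12, which acts in the lysosomal degradation of the transferrin receptor, had 1884, 1887 and 1988 normalized counts in the libraries labelled Txn1 KO, against 1743, 1683 and 1805 in wild type. Here too the groups did not overlap (log2 0.14 ± 0.046, limma adjusted p = 0.0384). The 9 members not called included Rab11a, the Rab of the recycling endosome, with 4038, 3699 and 3712 normalized counts in the libraries labelled Txn1 KO and 3735, 3692 and 3647 in wild type (log2 0.05, 95% interval -0.04 to 0.13). Rab15, which acts on early and recycling endosomes, was low in both groups (25.5, 23.0 and 29.6 normalized counts in Txn1 KO against 23.4, 28.8 and 41.1 in wild type; log2 -0.22).

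Rab17 (ENSMUSG00000026304, chromosome 1, 90958133 to 90969661, minus strand), known from transcytosis and recycling in epithelial cells, gave the largest difference of the family. It had 14, 28 and 17 reads in the libraries labelled Txn1 KO, or 16.2, 26.8 and 22.9 normalized counts, against 1, 0 and 3 reads in wild type, or 1.02, 0 and 2.52 normalized counts. Wild-type levels were thus at or under the floor of 3 reads per library, while every library labelled Txn1 KO stood above it. The sums were 59 reads in Txn1 KO and 4 in wild type, a depth-corrected ratio of 19.3 with an exact 95% interval of 7.14 to 73.0 that covers counting error only. The log2 difference was 3.55 ± 0.65 (SE; limma adjusted p = 0.000629), a value that depends on the pseudocount of 1 and ran from 2.13 to 4.25 over the alternatives. Rab17 passed the filter on low values only through the libraries labelled Txn1 KO, so a member with its wild-type level could be listed only if it differed. The 2 libraries with liver transcripts were on opposite sides, at 22.9 normalized counts in Txn1 KO replicate 3 and 1.02 in wild-type replicate 1. Even in the libraries labelled Txn1 KO it was a minor member, with 0.0191% to 0.0317% of the family's summed level per kb. Of the 14 other tested genes within 1 Mb, 2 rose and 2 fell, and Mlph, its neighbour, which encodes an effector of Rab27a, had 6.96 to 8.07 normalized counts in the libraries labelled Txn1 KO and 6.22 to 17.6 in wild type.

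Of the 10 Rabs of the ER and the Golgi 2 rose and 2 fell, beside 11.5% and 9.97% of all tested genes, and the group itself was not tested. Rab19 (chromosome 6, 39381175 to 39390380), a little-studied Golgi Rab, had 550.6, 537.7 and 503.3 normalized counts in the libraries labelled Txn1 KO, against 390.2, 362.9 and 412.5 in wild type. All 3 libraries labelled Txn1 KO were higher, by 36.5% of the wild-type mean (log2 0.45 ± 0.076, limma adjusted p = 0.00033). Rab2a, which acts between the ER and the Golgi and on late endosomes, had 4154, 4062 and 3976 normalized counts in the libraries labelled Txn1 KO and 3673, 3667 and 3779 in wild type. The groups did not overlap and the log2 difference was 0.13 ± 0.037 (limma adjusted p = 0.0148). Rab6b (chromosome 9, 103111787 to 103185276), an isoform of the Golgi Rab6 best known from neurons, had 337.3, 280.4 and 327.0 normalized counts in the libraries labelled Txn1 KO, against 450.4, 447.6 and 480.4 in wild type. It fell by 31.5%, with every library labelled Txn1 KO below every wild-type library (log2 -0.55 ± 0.086, limma adjusted p = 0.000167). Rab1b (chromosome 19, 5099205 to 5107072), which controls ER-to-Golgi transport, had 4895, 4995 and 4592 normalized counts in the libraries labelled Txn1 KO and 5441, 5484 and 5808 in wild type. It fell by 13.5% without overlap (log2 -0.21 ± 0.040, limma adjusted p = 0.00107). Rab1, which shares this role, did not pass, with 8649, 8615 and 8586 normalized counts in the libraries labelled Txn1 KO and 8042, 8581 and 8171 in wild type (log2 0.06, 95% interval -0.01 to 0.13).

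In the late endosomal and autophagosomal group 2 of 6 rose and 0 fell, beside 11.5% and 9.97% of all tested genes. Rab7b, which acts in transport from late endosomes to the trans-Golgi network and lowers TLR4 and TLR9 signalling in macrophages, had 15381, 15449 and 15637 normalized counts in the libraries labelled Txn1 KO, against 14665, 14170 and 14264 in wild type. The groups did not overlap, and the size was 7.81% of the wild-type mean (log2 0.11 ± 0.031, limma adjusted p = 0.018). Rab24, an atypical Rab of autophagosome clearance, had 2199, 2127 and 2024 normalized counts in the libraries labelled Txn1 KO and 1950, 1788 and 1895 in wild type. It was 12.7% higher without overlap (log2 0.17 ± 0.047, limma adjusted p = 0.0144). Rab24 shares exonic bases with Prelid1 on the opposite strand, and Prelid1 fell (6306 to 6523 normalized counts in Txn1 KO against 7914 to 8067 in wild type; log2 -0.31). Rab7 itself had 23369, 23740 and 22480 normalized counts in the libraries labelled Txn1 KO and 22066, 23694 and 22545 in wild type. Its groups overlapped throughout, and the 95% interval of the log2 difference ran from -0.05 to 0.10. Rab36, a late endosomal Rab, had 53.3, 68.9 and 78.1 normalized counts in the libraries labelled Txn1 KO, against 72.3, 38.9 and 46.1 in wild type, an overlapping difference of 0.37 (log2, SE 0.24).

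Of the 7 Rabs of early endosomes and phagosomes 1 rose and 0 fell, again beside 11.5% and 9.97%. Rab5a, which drives fusion of early endosomes, had 2376, 2266 and 2352 normalized counts in the libraries labelled Txn1 KO and 2060, 2219 and 2126 in wild type. Its groups lay close without overlap (log2 0.13 ± 0.043, limma adjusted p = 0.0453). Rab5b had 3681, 3719 and 3692 normalized counts in the libraries labelled Txn1 KO, against 3802, 4029 and 4029 in wild type. These did not overlap either, but the difference did not pass (log2 -0.10 ± 0.037, limma adjusted p = 0.0816). It did pass when wild-type replicate 1 was left out, at a limma adjusted p of 0.0344, and when both libraries with liver transcripts were, at 0.0266. Rab5c, the most abundant isoform, had 10199, 9964 and 9771 normalized counts in the libraries labelled Txn1 KO and 10047, 9876 and 9789 in wild type. The log2 difference, 0.01, had a 95% interval from -0.06 to 0.08 and was -0.0053 without Txn1 KO replicate 1. Rab31, a Rab of the trans-Golgi network and endosomes, had 4777, 4740 and 4199 normalized counts in the libraries labelled Txn1 KO, against 4673, 4723 and 4785 in wild type. Its low value lay in Txn1 KO replicate 3 alone, and its log2 difference of -0.05 was 0.0097 without that library.

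Of the 8 Rabs of secretory granules and lysosome-related organelles 1 fell and 0 rose, beside 9.97% and 11.5% of all tested genes. Rab29, which can recruit the kinase LRRK2 to membranes, had 992.3, 1069 and 1003 normalized counts in the libraries labelled Txn1 KO, against 1145, 1111 and 1158 in wild type. The groups did not overlap (log2 -0.16 ± 0.052, limma adjusted p = 0.0409). Rab44, an unusually large Rab known from immune cell granules, had 25.5, 33.5 and 36.3 normalized counts in the libraries labelled Txn1 KO and 25.5, 14.0 and 21.8 in wild type. The lowest library labelled Txn1 KO barely exceeded the highest wild-type library, and the difference of 0.64 (log2, SE 0.32) did not pass (limma adjusted p = 0.177). Rab38, a melanosome Rab, averaged 28.6 ± 3.33 normalized counts in Txn1 KO and 26.6 ± 11.4 in wild type (SD, n = 3 each), and its log2 difference of 0.20 was -0.21 without wild-type replicate 3. Rab40c, a substrate adaptor of Cullin ubiquitin ligases, had 1384, 1370 and 1494 normalized counts in the libraries labelled Txn1 KO and 1531, 1653 and 1544 in wild type. It fell without overlap (log2 -0.15 ± 0.051, limma adjusted p = 0.0385). Among the 5 cilium, Cullin and less studied Rabs it was the 1 that passed (20%), near the 21.5% of all tested genes. Rab40c and Rab5a share exonic bases with the opposite-strand annotations Gm16278 and Pp2d1. Rab39, whose protein takes part in phagosome and autophagy traffic, had 61.9 to 76.5 normalized counts in the libraries labelled Txn1 KO and 46.9 to 68.4 in wild type (log2 0.23, SE 0.20).

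**Figure D3:**
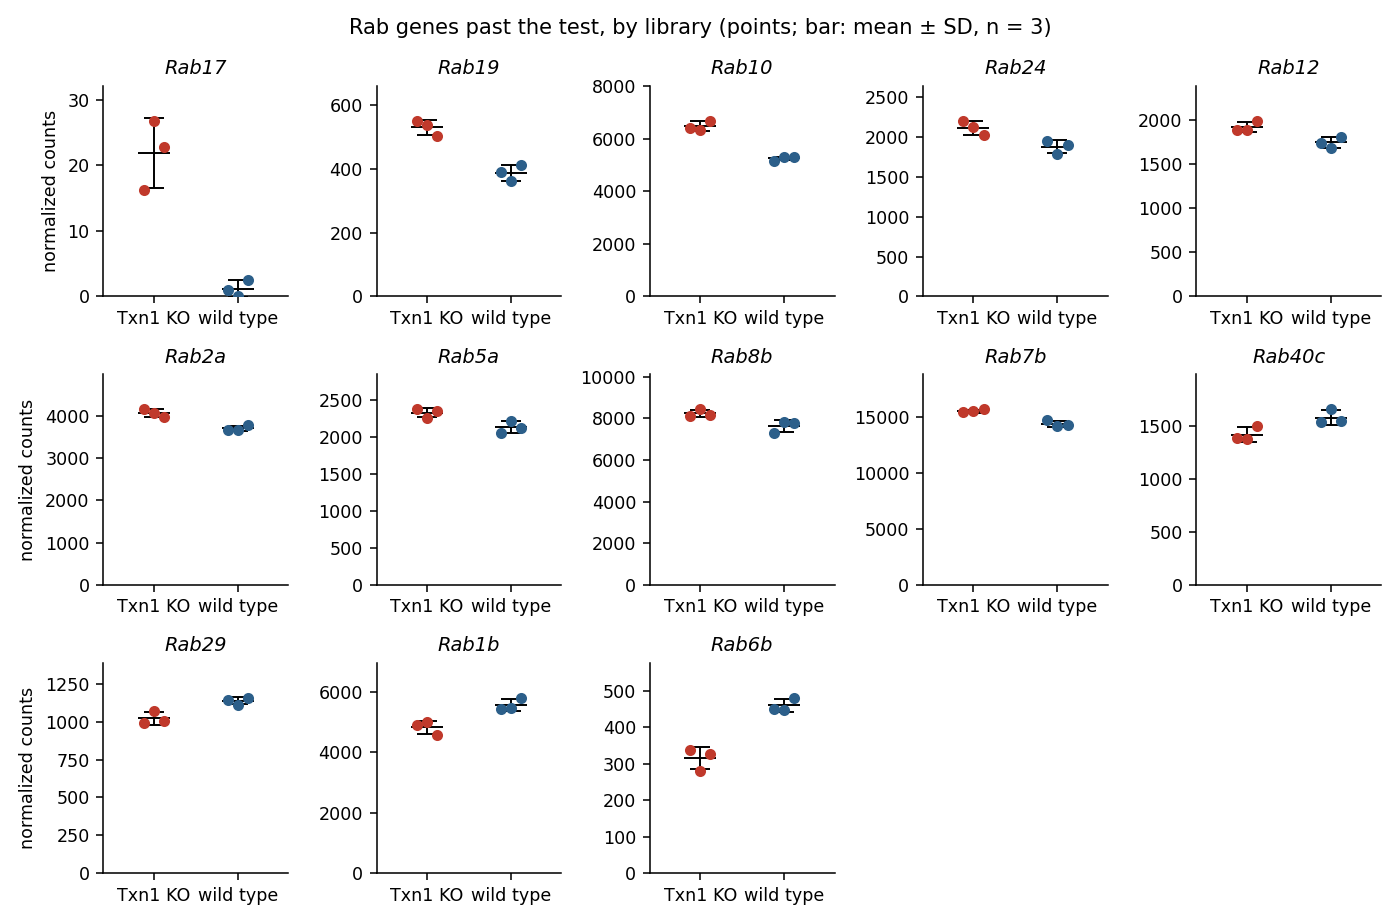
Normalized counts (vertical axis, from 0) of the 13 Rab genes that passed the test, with each library as a point and the mean ± SD of 3 libraries per group. The 2 groups do not overlap in any panel; the gap is wide for Rab17, Rab19, Rab10 and Rab6b and narrow for the others.

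Of the 13 calls, 4 (Rab10, Rab6b, Rab19 and Rab1b) held without any 1 library. Rab17 could not be tested without Txn1 KO replicate 2 or 3, where its mean was under 10, so its call is not counted as stable. The other 8 lost the call without some library, at limma adjusted p values of up to 0.0776 for Rab24 (Txn1 KO replicate 1; also wild-type replicate 2), 0.0731 for Rab2a (Txn1 KO replicate 1), 0.0827 for Rab7b (wild-type replicate 3; also wild-type replicate 2 and Txn1 KO replicate 2), 0.152 for Rab8b (wild-type replicate 1; also wild-type replicate 3 and Txn1 KO replicates 1 and 2), 0.167 for Rab40c (wild-type replicate 2; also wild-type replicate 3 and Txn1 KO replicates 1 and 2), 0.146 for Rab12 (wild-type replicate 2; also every other library but wild-type replicate 3), 0.144 for Rab29 (wild-type replicate 3; also every other library but Txn1 KO replicate 2) and 0.151 for Rab5a (wild-type replicate 1; also every other library but wild-type replicate 2).

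Of the 36 members that did not pass, 28 had group means within 10% of each other, and 21 had a 95% interval of the log2 difference inside 1.25-fold in both directions. For those 21, changes of that size lie outside the interval. The intervals of low members such as Rab37 (log2 interval -0.81 to 0.85) and Rab42 (-0.85 to 0.86) were wider and held changes past 1.25-fold in both directions. The 7 uncalled members whose groups did not overlap (19.4% of the 36) were Rab1, Rab5b, Rab6a, Rab8a, Rab20, Rab33b and Rab44. Over all tested genes, 5058 did not overlap while 3001 were called, so many uncalled genes outside the family did not overlap either. Rab6a, the main Golgi isoform of Rab6, had 2335, 2364 and 2375 normalized counts in the libraries labelled Txn1 KO and 2236, 2261 and 2194 in wild type (log2 0.08, SE 0.040). Rab8a, which acts in exocytosis and on macropinosomes, had 3723, 3742 and 3825 normalized counts in the libraries labelled Txn1 KO, against 3888, 4009 and 4042 in wild type (log2 -0.08, SE 0.036). Rab20, a phagosome Rab induced by interferon-gamma, had 399.9, 403.8 and 425.3 normalized counts in the libraries labelled Txn1 KO, against 338.3, 376.1 and 384.9 in wild type (log2 0.16, SE 0.080). Rab33b, a Golgi Rab that binds the autophagy protein ATG16L1, had 701.3, 732.0 and 736.2 normalized counts in the libraries labelled Txn1 KO, against 690.8, 668.3 and 667.4 in wild type (log2 0.10, SE 0.059). The groups of these 4 lay close to each other, and their limma adjusted p values were 0.134 to 0.276.

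Several well-expressed members showed little difference in either direction. Rab14, which acts between the Golgi, endosomes and phagosomes, had 7377 to 7870 normalized counts in the libraries labelled Txn1 KO and 7581 to 8176 in wild type (log2 -0.03, 95% interval -0.11 to 0.05). Rab35, a Rab of fast recycling at the plasma membrane, had 2358 to 2430 normalized counts in Txn1 KO and 2259 to 2422 in wild type (log2 0.04, 95% interval -0.05 to 0.13). Rab22a, an early endosomal Rab, had 2404 to 2611 in Txn1 KO and 2480 to 2635 in wild type (log2 -0.03, 95% interval -0.12 to 0.07). Rab11b, the isoform beside Rab11a, had 3164 to 3236 in Txn1 KO and 2926 to 3247 in wild type (log2 0.03, 95% interval -0.06 to 0.12). Rab32, which acts on lysosome-related organelles, had 1038 to 1156 normalized counts in the libraries labelled Txn1 KO and 1108 to 1195 in wild type (log2 -0.08, 95% interval -0.19 to 0.04). Rab27a, the Rab of granule and melanosome secretion, was scarcer at 117.1 to 143.5 normalized counts in Txn1 KO and 118.9 to 126.6 in wild type (log2 0.06, 95% interval -0.23 to 0.34). Single libraries set the spread of some members: Rab34, which positions lysosomes, reached 699.0 normalized counts in wild-type replicate 1 and lay between 521.7 and 592.3 in the other 5 libraries, and Rab18, a Rab of the ER and lipid droplets, was at 2522 in that library and between 2769 and 2915 in the others. Rab43, a Golgi Rab, had 127.9 to 224.9 normalized counts in Txn1 KO and 157.8 to 233.9 in wild type.

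Rab genes that share a number often encode isoforms with like functions, and the ratio within such a pair is free of a common scaling error. All 11 pairs among the members were compared by the log2 ratio within each library, with exact two-sided permutation tests whose smallest possible p is 0.1 with 3 against 3 libraries. In 7 of the 11 pairs the ratio did not overlap between the groups, each at that smallest p (adjusted exact permutation p = 0.157), so none can pass. The share of single genes whose groups did not overlap was 36.2%, the same count over other gene pairs was not made, and 3 of the 7 pairs are built from the same values of Rab5a, Rab5b and Rab5c and are not separate observations. The log2 ratio of Rab6a to Rab6b was 2.79, 3.07 and 2.86 in the libraries labelled Txn1 KO and 2.31, 2.33 and 2.19 in wild type. The mean difference was 0.63, towards the major Golgi isoform, while the pair's summed counts were 2673 ± 28.9 in Txn1 KO and 2690 ± 17.5 in wild type (SD, n = 3 each). For Rab1 to Rab1b the log2 ratio was 0.82, 0.79 and 0.90 in the libraries labelled Txn1 KO, against 0.56, 0.65 and 0.49 in wild type. The mean difference was 0.27, towards Rab1, with summed counts of 13444 ± 232.8 in Txn1 KO and 13842 ± 313.8 in wild type. The log2 ratio of Rab8a to Rab8b was -1.12, -1.17 and -1.09 in the libraries labelled Txn1 KO and -0.91, -0.97 and -0.94 in wild type, a mean difference of -0.19, towards Rab8b. For Rab2a to Rab2b the difference was 0.29 and for Rab5a to Rab5b 0.22, both towards the first. For Rab5a to Rab5c it was 0.12 and for Rab5b to Rab5c -0.11. Summed counts were 11997 ± 168.5 in Txn1 KO and 11607 ± 377.7 in wild type for Rab8a and Rab8b. For Rab2a and Rab2b they were 4185 ± 100.8 and 3842 ± 67.5, and did not overlap. For Rab5a and Rab5b they were 6029 ± 38.4 and 6088 ± 201.7. The sums are not divided by length, so the member with more reads weighs most. No separation was seen for Rab3a to Rab3d, Rab4a to Rab4b, Rab7 to Rab7b and Rab11a to Rab11b, whose differences were -0.07, 0.14, -0.08 and 0.02.

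**Figure D4:**
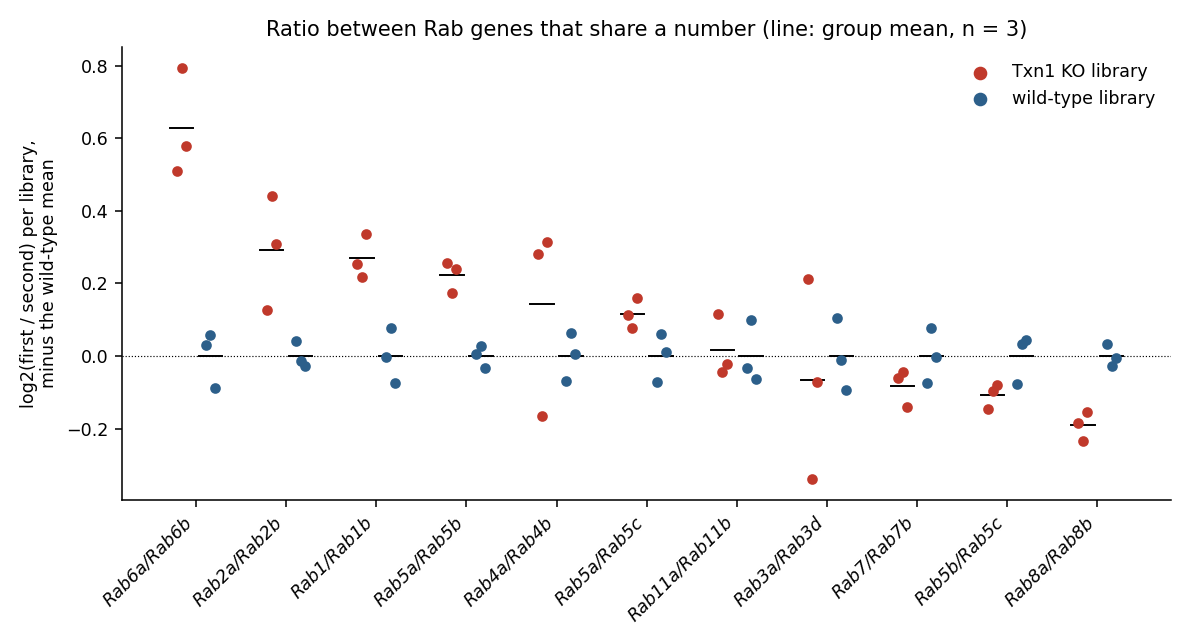
Log2 ratio of the first to the second gene of each pair in each library, minus the pair's wild-type mean (vertical axis), with lines at the group means of 3 libraries. Rab6a to Rab6b shows the widest gap (0.63), and 7 of the 11 pairs do not overlap between the groups.

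The regulators were measured in the same fit. Of 34 Rab GEF genes 3 rose and 2 fell, a share of 14.7% past the test beside 21.5% of all tested genes, with a median log2 difference of -0.03. Dennd2a, a GEF for Rab9, had 816.1, 878.4 and 761.7 normalized counts in the libraries labelled Txn1 KO, against 511.5, 550.2 and 548.4 in wild type (log2 0.61, limma adjusted p = 4.13e-06). Rin3, a GEF for the Rab5 group, had 1652, 1738 and 1713 normalized counts in the libraries labelled Txn1 KO and 1168, 1358 and 1277 in wild type (log2 0.43). Ric1, which with Rgp1 activates Rab6, rose by 0.29. Dennd1a, a GEF for Rab35, and Rab3il1, a GEF for Rab8, fell, at -0.18 and -0.14. Dennd1a did not pass once wild-type replicate 2 was left out (limma adjusted p = 0.0517), and that of Rab3il1 without Txn1 KO replicate 2 or wild-type replicate 3 (limma adjusted p of up to 0.0867).

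Among 40 GAP genes 5 rose and 7 fell, which is 12 of 40 past the test beside 21.5% of all tested genes, with a median log2 difference of 0.02. Tbc1d2, a GAP for Rab7, had 2407, 2376 and 2344 normalized counts in the libraries labelled Txn1 KO, against 1543, 1598 and 1678 in wild type (log2 0.57, limma adjusted p = 5.75e-08). It lies on chromosome 4, 11.3 Mb from Txn1, on the chromosome of the engineered allele. Usp6nl, a GAP for Rab5, rose by 0.39, Tbc1d9 by 0.27 and Tbc1d23, a Golgi tether that has lost GAP activity, by 0.28. Tbc1d20, a GAP for Rab1, had 3934, 3945 and 3733 normalized counts in the libraries labelled Txn1 KO and 4389, 4492 and 4568 in wild type (log2 -0.21, limma adjusted p = 0.000486). Tbc1d16, a GAP for Rab4, fell, at -0.42, as did Tbc1d22a and Tbc1d9b, both at -0.22. Each of these 8 kept its call without any 1 library.

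Of the 11 genes of prenylation, membrane cycling and Rab phosphorylation 1 rose and 0 fell, beside 11.5% and 9.97% of all tested genes. Gdi2, the main GDP dissociation inhibitor outside the brain, had 17936, 17507 and 17755 normalized counts in the libraries labelled Txn1 KO, against 16085, 16188 and 16195 in wild type (log2 0.13, limma adjusted p = 0.00362). Of 50 effector genes 8 rose and 4 fell (24.0%, beside 21.5% of all tested genes, median log2 0.06). Mical3, an oxidoreductase that acts with Rab6 and Rab8 at vesicle fusion, had 300.2, 269.8 and 305.5 normalized counts in the libraries labelled Txn1 KO, against 161.0, 174.8 and 160.1 in wild type (log2 0.82, limma adjusted p = 1.6e-05). Uso1, the Golgi tether p115 that binds Rab1, rose by 0.32, Plin3, a lipid droplet protein that binds Rab9, by 0.28 and Myo5a, a myosin motor for Rab vesicles, by 0.26. The falls were Vps33a, a subunit of the HOPS tether of late endosomes (-0.16), Ehbp1l1, which binds Rab8 (-0.13), Rufy1, which binds Rab4 (-0.16), and Rabep2, which binds Rab5 (-0.22). The last 3 lost their calls without single libraries, Ehbp1l1 without Txn1 KO replicate 1 or wild-type replicate 3 (limma adjusted p of up to 0.0748), Rufy1 without Txn1 KO replicate 3 or wild-type replicate 2 or 3 (up to 0.108) and Rabep2 without Txn1 KO replicate 2 or 3 or wild-type replicate 1 or 3 (up to 0.219). Of the 5 listed Rab-like genes outside the name rule 1 passed, beside 21.5% of all tested genes. Rabl6 fell (1781, 1834 and 1807 normalized counts in Txn1 KO against 2028, 2041 and 2014 in wild type, log2 -0.17). Over the 5 lists together 17 genes rose and 14 fell of 140 (22.1%), a share near the 21.5% of all tested genes.

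**Figure D5:**
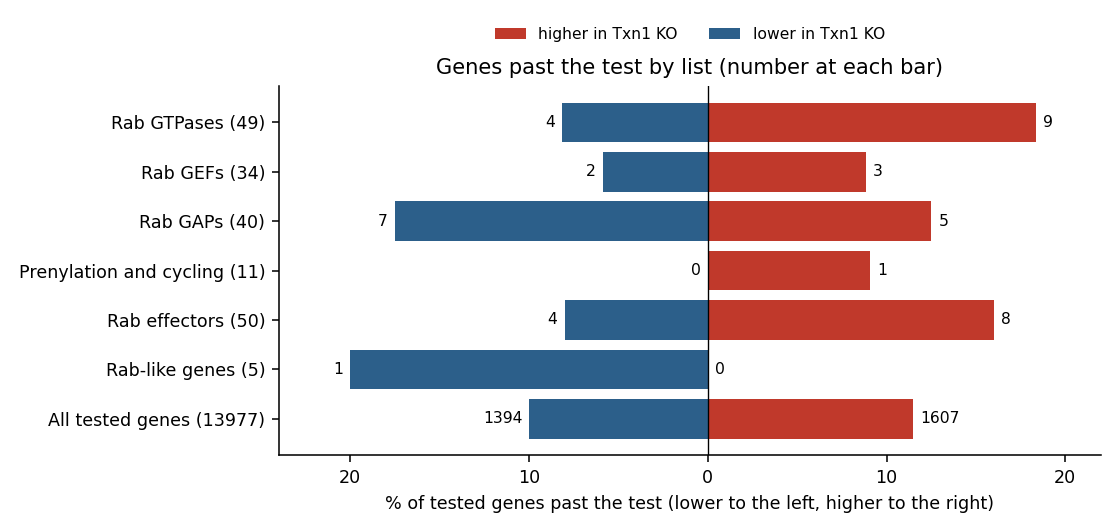
Percentage of the tested genes of each list (number tested in brackets) that were higher (right) or lower (left) in the libraries labelled Txn1 KO; numbers of genes stand at the bars. Rab GTPases had 9 rises, counting Rab17, and 4 falls, and all tested genes 1607 and 1394.

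Rab genes lie scattered over the genome. On chromosome 10, which carries Lyz2, the nearest member is Rab21, 1.96 Mb away, an early endosomal Rab with a log2 difference of -0.03 (limma adjusted p = 0.712). The nearest regulator is Rab3ip, a GEF for Rab8, 0.327 Mb away, also at -0.03. On chromosome 4, Rab2a is 49.3 Mb from Txn1 and Rab42 74.3 Mb. Without the genes of both chromosomes 8 members were higher and 4 lower of 43, Rab2a being the call that was left out. Rab9, the only X-linked member, had 2081 to 2108 normalized counts in the libraries labelled Txn1 KO and 2020 to 2137 in wild type.

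Promoter windows from RefSeq (GRCm38.p6, 250 bases before to 50 after a start) matched 41 members, with 53 windows, 11 of the 13 called members among them, and were searched on both strands for motifs of pathways that act on macrophage genes. The antioxidant response element core TGACNNNGC stood in a window of 7 of the 41 members (17.1%), beside 14.0% of all 27025 genes with a window. The CLEAR element of lysosomal genes, searched as the E-box CACGTG with GT before and AC after it, stood in 3 (7.32%, beside 0.370%), and the E-box alone, which every CLEAR match also holds, in 6 (14.6%, beside 8.09%). The interferon response core, searched as GAAA, any 2 bases and GAAA, stood in 1 (2.44%, beside 3.99%) and the sterol element TCACNNCAC in 3 (7.32%, beside 4.37%). The CLEAR matches were in Rab5a, Rab21 and Rab24, of which Rab5a and Rab24 rose and Rab21 did not pass. The antioxidant core was in Rab8b and Rab24, which rose, and in Rab4b, Rab7, Rab8a, Rab22a and Rab43, which did not pass. Rab2a and Rab7b had no window and were not searched. Uncalled members also held the E-box (Rab20, Rab21, Rab23 and Rab27a) and the sterol element (Rab3a, Rab28 and Rab43). Whether matches go with a change was not tested. The windows of the 4 called members with a match, out of 11 searched, are printed 5′ to 3′ along the gene, with matches in capitals. Rab24 is at chr13:55321931-55322230 (minus strand), where the CLEAR and antioxidant matches overlap, Rab5a at chr17:53478984-53479283 (plus strand), with a CLEAR match and a separate E-box, Rab8b at chr9:66919656-66919955 (minus strand), with the antioxidant core, and Rab19 at chr6:39381103-39381402 (plus strand), with 2 overlapping interferon cores on the other strand. A match is a run of letters and does not show that a factor binds.
Rab24: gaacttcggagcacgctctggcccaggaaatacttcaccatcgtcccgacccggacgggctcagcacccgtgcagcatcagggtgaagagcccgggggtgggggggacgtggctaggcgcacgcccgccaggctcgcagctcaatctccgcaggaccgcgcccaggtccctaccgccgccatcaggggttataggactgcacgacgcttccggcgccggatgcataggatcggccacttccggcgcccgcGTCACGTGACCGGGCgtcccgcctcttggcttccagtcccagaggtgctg
Rab5a: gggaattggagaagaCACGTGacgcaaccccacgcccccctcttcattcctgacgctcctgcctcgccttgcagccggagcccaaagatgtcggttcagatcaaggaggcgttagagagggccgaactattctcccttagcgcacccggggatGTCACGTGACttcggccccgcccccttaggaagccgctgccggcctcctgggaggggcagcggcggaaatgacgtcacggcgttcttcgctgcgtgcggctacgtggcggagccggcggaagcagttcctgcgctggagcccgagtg
Rab8b: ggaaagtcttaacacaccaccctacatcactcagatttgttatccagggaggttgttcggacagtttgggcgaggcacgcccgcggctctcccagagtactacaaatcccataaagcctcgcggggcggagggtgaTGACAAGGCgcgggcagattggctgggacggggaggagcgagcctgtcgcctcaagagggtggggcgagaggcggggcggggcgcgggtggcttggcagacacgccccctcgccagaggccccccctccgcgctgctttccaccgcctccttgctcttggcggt
Rab19: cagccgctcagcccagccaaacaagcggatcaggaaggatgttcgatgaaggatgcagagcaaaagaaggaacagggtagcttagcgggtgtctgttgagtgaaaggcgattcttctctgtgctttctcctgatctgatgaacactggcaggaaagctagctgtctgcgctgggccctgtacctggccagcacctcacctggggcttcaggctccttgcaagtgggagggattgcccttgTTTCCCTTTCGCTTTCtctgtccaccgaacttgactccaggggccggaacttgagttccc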

How the data were processed

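RNA of 6 libraries was measured, 3 labelled Txn1 KO and 3 wild type. The submitters' processing notes name STAR 2.5.2b, Trimmomatic 0.36, bcl2fastq 2.20 and DESeq2, with GRCm38 (mm10). Which program counted the reads, by which strand and with which annotation was not stated. The signal values the authors deposited are read counts scaled by a size factor for each library: 100% of values were whole multiples of 1 step at a tolerance of 0.01 reads, and 1 read was worth 0.777 to 1.35 normalized counts. The floor of 3 reads was 2.33 to 4.04 normalized counts and covers counting error only. The authors' own log2 fold changes and p-values stand in the deposited table and served as an alternative. The lowest mean of a listed gene was 9.28.

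The control columns, which carry the cell type and a replicate number, were matched to wild type. The main test was limma 3.58.1 (R 4.3.3, trended prior) on log2(normalized count + 1), two-sided, in the 13977 genes whose mean was 10 or more, with Benjamini-Hochberg adjustment over all of them. Recovered reads were tested with edgeR 4.0.16, DESeq2 1.42.0 and limma-voom as alternatives. On these reads edgeR called 2969 genes and 12 Rab members. Positions and exon lengths came from GENCODE M21, which matched all 49 members. The fit was tested on simulated data whose spread was set and not fitted to these libraries. It recovered 36.8% of log2 changes of 0.25, 86.4% of 0.5 and 100% of 1. Of 156 calls there, 8 were false. Many changes of the size seen in most called Rab members would thus be missed in such data.

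The members, lists and tests were chosen with earlier results of these data known. Named are all called members, the uncalled ones highest in level or difference or with an adjusted p under 0.10, and up to 4 called genes per list and direction. Members named for other reasons, in pairs, on chromosomes or to spell out a count, were chosen after their values were seen.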

Additional observations from a re-analysis of the deposited data

How the results depend on the processing

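Across 21 alternatives, 3 of the 13 called Rab members (Rab10, Rab6b and Rab19) kept their call in each, and Rab1b lost its only without the trended prior. Rab17 passed in the 18 that could test it, but it entered the test only through the libraries labelled Txn1 KO, which says nothing of its stability. The counts of Rab members that rose and fell were 3 and 2 at an adjusted p under 0.01, and 3 and 1 in limma without the trended prior, which left 5 list genes lower and 923 and 602 of all genes higher and lower. At the threshold of 0.01, 9 list genes were lower, and 1024 and 809 of all genes were higher and lower. At 0.1, 29 list genes were higher. Leaving out 1 library gave 4 to 6 Rab members higher and 2 to 4 lower, 8 to 14 list genes lower and 891 to 1303 of all genes lower. The authors' deposited table calls 10 Rab members, each also called here. Small log2 differences changed sign when 1 library was left out: Rab5c ran from -0.0053 (without Txn1 KO replicate 1) to 0.0257, Rab31 from -0.0834 to 0.0097 (without Txn1 KO replicate 3), Rab38 from -0.21 (without wild-type replicate 3) to 0.42, and Txn1 from -0.0507 to 0.0075 (without wild-type replicate 1). Without both libraries with liver transcripts Rab31 was 0.0014 and Txn1 0.0050. The cause was not tested. The median log2 difference of all genes lay between -0.0076 and -0.0012 in every setting.

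With the replicate number as a block, 6 Rab members were higher and 2 lower. Whether the numbers pair the samples is not said in the labels. Same-numbered libraries had deviations that correlated at -0.27, 0.14 and -0.33, and not every library correlated best with its own number. The highest correlation, 0.43, was between Txn1 KO replicate 3 and wild-type replicate 1, the 2 libraries with liver transcripts. These values therefore cannot decide whether the numbers are pairs.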

Other observations

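Neighbouring genes of the called members gave a few values that belong to no comparison. Rab7b and Rab29 lie 151.8 kb apart on chromosome 1 and differed in direction, with log2 differences of 0.11 and -0.16. Near Rab19, 3 of the 21 other tested genes within 1 Mb passed the test, a lower share than the 21.5% of all tested genes. They were higher in the libraries labelled Txn1 KO: Dennd2a (0.61), Slc37a3 and Kdm7a. Slc37a3, of the sugar phosphate exchanger family, had 1200, 1098 and 1117 normalized counts in the libraries labelled Txn1 KO, against 965.9, 962.8 and 839.3 in wild type (log2 0.30), and Kdm7a, a histone demethylase, had 1199, 1299 and 1470 in Txn1 KO against 1023, 1129 and 1037 in wild type (log2 0.31). Other windows held both directions, with 10 higher and 12 lower of 87 genes around Rab1b and 7 higher and 6 lower of 63 around Rab40c. No other tested gene within 1 Mb of Rab2a (3 genes) or Rab5a (2 genes) passed. These windows were chosen after the values of the members were seen.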
